A study of Sus scrofa with 12 samples.

Results

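The HOX cluster genes of the pig were taken as every gene of the Sscrofa11.1 gene table whose symbol is HOXA, HOXB, HOXC or HOXD followed by a number. The rule gave 36 genes of the 30371 genes with a position in the table. They lie in 4 clusters: 11 HOXA genes on chromosome 18 (chr18:45373340-45480306), 8 HOXB genes on chromosome 12 (chr12:24784953-24950661), 9 HOXC genes on chromosome 5 (chr5:19151096-19268267) and 8 HOXD genes on chromosome 15 (chr15:81893997-81990026). No gene with the symbol HOXB4, HOXB9 or HOXD4 was among the 36, so the counts by cluster and paralog group leave these out. The study compared longissimus muscle of Large White (LW), a commercial lean breed, with that of Meishan (MS), a Chinese local breed, in piglets 2 weeks old that the study's methods describe as male. Each breed had 2 H3K27ac BL-HiChIP libraries, which list loops between 5-kb anchors of which at least one carries the active mark H3K27ac, and 2 GRID-seq libraries, which list the RNAs bound to each 1-kb bin of DNA. Nothing in the labels says that the 2 libraries of a breed came from separate animals, so each p-value below measures the spread between these libraries, which may be technical.

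HOX genes encode homeodomain transcription factors that give cells along the body axis their position. The genes stand in their cluster in the order of their paralog numbers, from the anterior genes, which are switched on early and towards the head, to the posterior genes, which are switched on late and towards the tail. Adult and juvenile tissues of the trunk keep part of the code of their axial level, and Polycomb proteins keep the remaining genes of a cluster silent. Paralog groups 1 to 3 are called anterior here, 4 to 8 central and 9 to 13 posterior.

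The loop lists held 57028 (LW1), 43282 (LW2), 45061 (MS1) and 33353 loops (MS2), and the GRID-seq lists held between 519 and 681 RNAs with 7172517 to 9943666 reads. The tissue label was checked with 10 genes of the muscle fibre, among them ACTA1, TTN and TNNT3, and all 10 had loops in all 4 libraries. Their median loop score was 46.0 in LW1, 125 in LW2, 47.1 in MS1 and 117 in MS2, so the second library of each breed stood above the first in this list. Markers of other cells of the tissue also had loops: 4 of 4 endothelial, 4 of 4 fibroblast, 2 of 2 satellite cell, 2 of 4 adipocyte and 1 of 3 immune markers in at least 1 library, and 0 of 3 markers of nerve. The tests described below were read here at their fold and unadjusted p limits. PAX7 of satellite cells was higher in LW in loop score (log2 fold change 3.67 ± 0.77), as were 2.83% of all genes. In RNA-chromatin signal MYLPF of muscle fibres (6.22 ± 1.04) and CD3E of T cells (6.13 ± 1.01) were higher in LW, as were 7.49% of all genes. KDR of endothelium (-3.73 ± 0.93) was higher in MS, as were 8.28%. This signal is that of any listed RNA on DNA within 5 kb of the gene, not the marker's own RNA. The RNAs of CD3E and KDR were listed in no library, and that of MYLPF in LW1 only. The part of these differences in the HOX results was not tested.

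A loop was assigned to a HOX gene when one of its anchors came to 1 kb or less from the gene's start or end, and the loop score of a gene is the sum of the strengths, −log10 of the false discovery rate (FDR), of its loops. Of the 36 HOX genes, 29 had a loop in at least 1 library and 19 in all 4. Among the 20663 protein-coding genes 59.3% had a loop in any library and 29.9% in all 4. The HOX genes with a loop numbered 27 in LW1, 22 in LW2, 25 in MS1 and 24 in MS2, or 75.0%, 61.1%, 69.4% and 66.7% of them, beside 50.1%, 44.1%, 45.8% and 39.8% of protein-coding genes. Neighbouring HOX genes share 5-kb anchors, so one loop is often counted for several of them.

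The loops followed the position in the cluster. Of the 8 anterior genes 6 had a loop in all 4 libraries, as had 9 of the 13 central genes and 4 of the 15 posterior genes. Among the anterior genes, HOXA3 is outlined over 46262 bp, so that one of its ends lies beside HOXA6 and HOXA7. All its loops in MS came from the anchor at that end, which it shares with these genes. The drop lay between paralog groups 10 and 11. Of the 27 genes of group 10 or lower 26 had a loop in some library and 19 in all 4, while of the 9 genes of group 11 or higher 6 had none and 3 had a loop in 1 library each. The 7 genes without any loop were HOXB1, which patterns the hindbrain, and HOXA11, HOXA13, HOXB13, HOXC11, HOXC12 and HOXC13, which pattern limb, tail and urogenital structures.

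No loop of any kind had an anchor in the stretch from HOXA11 to HOXA13 (18.9 kb), at HOXB13 (2.36 kb) or in the stretch from HOXC11 to HOXC13 (37.9 kb), in any of the 4 libraries. From HOXD11 to HOXD13 (16.8 kb) LW1 and LW2 had 1 loop each and MS1 and MS2 had 0. HOXD11 had its loop in LW1 (strength 3.08), and HOXD12 and HOXD13 shared that of LW2 (2.71). HOXD10 beside them had scores of 3.08, 0, 2.08 and 5.60 in LW1, LW2, MS1 and MS2. An anchor inside the bodies of HOXD9 and HOXD10 (chr15:81915001-81920000) met chr15:82425001-82430000 in all 4 libraries (9.13, 12.9, 15.4 and 4.78). It lies more than 1 kb from their ends, so their scores leave this loop out.

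**Figure D1:**
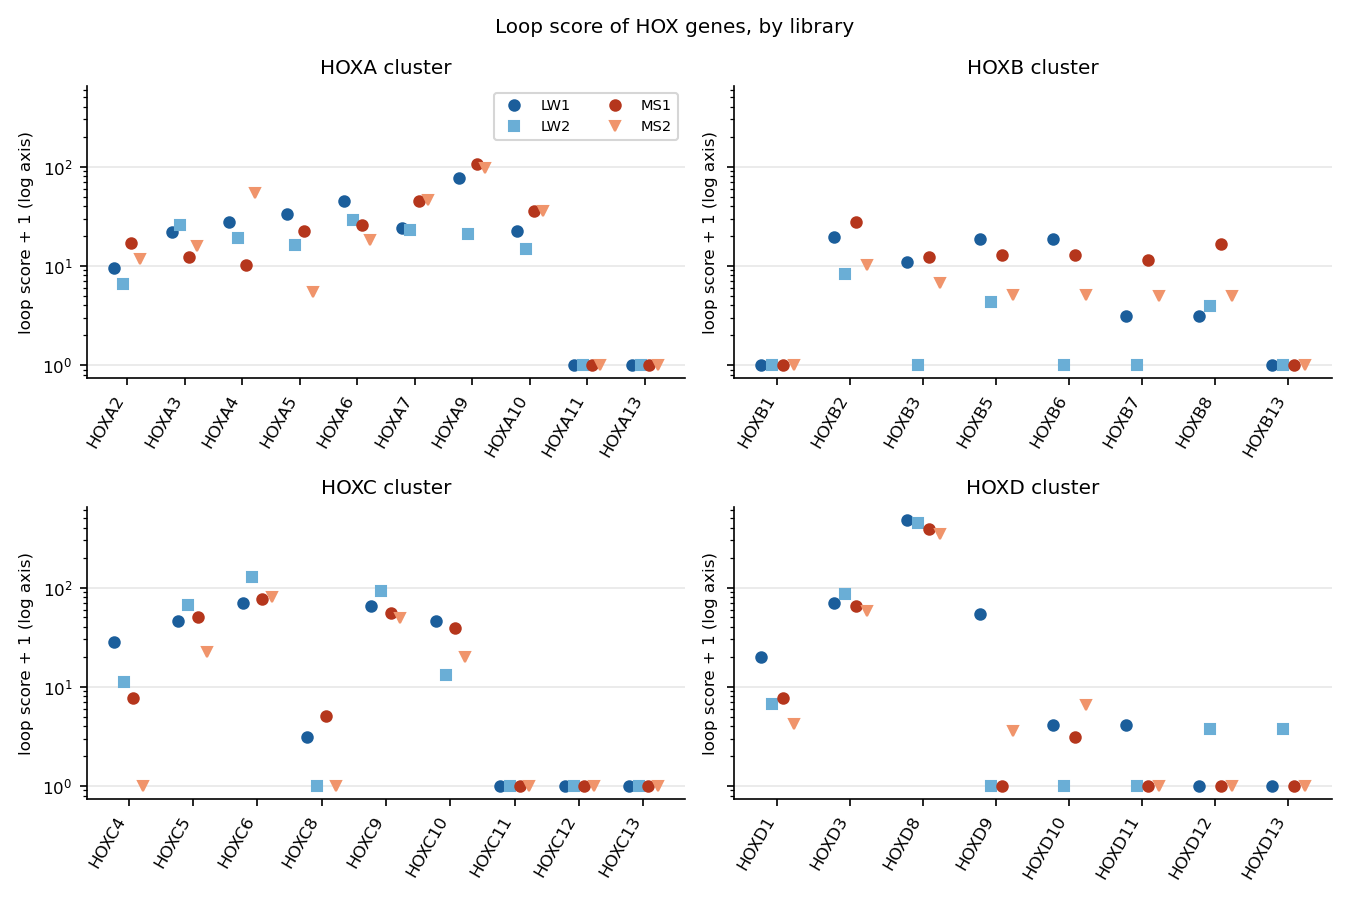
Loop score plus 1 of the HOX genes reported (log axis), one panel per cluster with genes in the order of their paralog groups and one point per library. HOXD8 stands at 343 to 477 in the 4 libraries, and HOXA11, HOXA13, HOXB1, HOXB13 and HOXC11 to HOXC13 lie on the floor, a score of 0.

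HOXD8, a central gene expressed in the trunk and proximal limb, had the highest score of the family in every library. It was 477 in LW1, 451 in LW2, 386 in MS1 and 343 in MS2, from 16, 18, 16 and 12 loops. All LW values lay above all MS values. The gene ranked 2, 20, 5 and 25 among protein-coding genes of the 4 libraries. HOXC6 followed in the mean of the libraries, with 68.3, 126, 75.0 and 80.0, then HOXA9 with 76.6, 19.7, 104 and 94.9, HOXD3 with 69.4, 85.4, 64.8 and 57.0, and HOXC9 with 64.9, 91.2, 54.3 and 48.9. Between these 4 genes the ranges over the libraries overlapped, whereas HOXD8 lay above all of them.

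The 4 clusters differed in how far this went. In HOXA 9 of 11 genes had a loop in all 4 libraries, against 3 of 8 in HOXB, 4 of 9 in HOXC and 3 of 8 in HOXD. HOXB was the weakest cluster, with 7, 3, 12 and 5 loops, and its highest gene score in any library was 26.6, at HOXB2 in MS1.

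In all, 216 distinct loops of the 122406 found in the 4 libraries touched a HOX gene, 90, 75, 90 and 62 per library. Of these 68 had both anchors in the same cluster and 148 left it. Most were seen once: 155 HOX loops (71.8%) were called in 1 library and 12 (5.56%) in all 4, beside 69.1% and 3.78% of all loops. Loops were matched by identical anchors, so a call shifted to an adjoining anchor counted as another loop. Of the 12 recurrent loops, those inside a cluster joined short stretches at HOXA9 and HOXA10, at HOXA5 to HOXA7, at HOXC6, at HOXD8 and at HOXD3, among others. A further 6 ran from HOXD8 and HOXD3 to regions outside HOXD.

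The loops leaving the clusters ran almost all to one side. Of the 148 leaving loops 146 (98.6%) ran out beyond the anterior end, the end with the lowest paralog number. The counts were 36 of 36 in HOXA, 8 of 8 in HOXB, 53 of 53 in HOXC and 49 of 51 in HOXD. The exceptions were 2 loops of LW2, one from HOXD12 and HOXD13 to the gene LNPK and one from HOXD8. Of the 8 HOX genes with at least 5 loops of 100 kb or more, 7 had all of them on 1 side (HOXD8 had 29 and 1), a property of 44.3% of the 1818 protein-coding genes with so many long loops. The HOX genes of a cluster share anchors and are not independent.

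**Figure D2:**
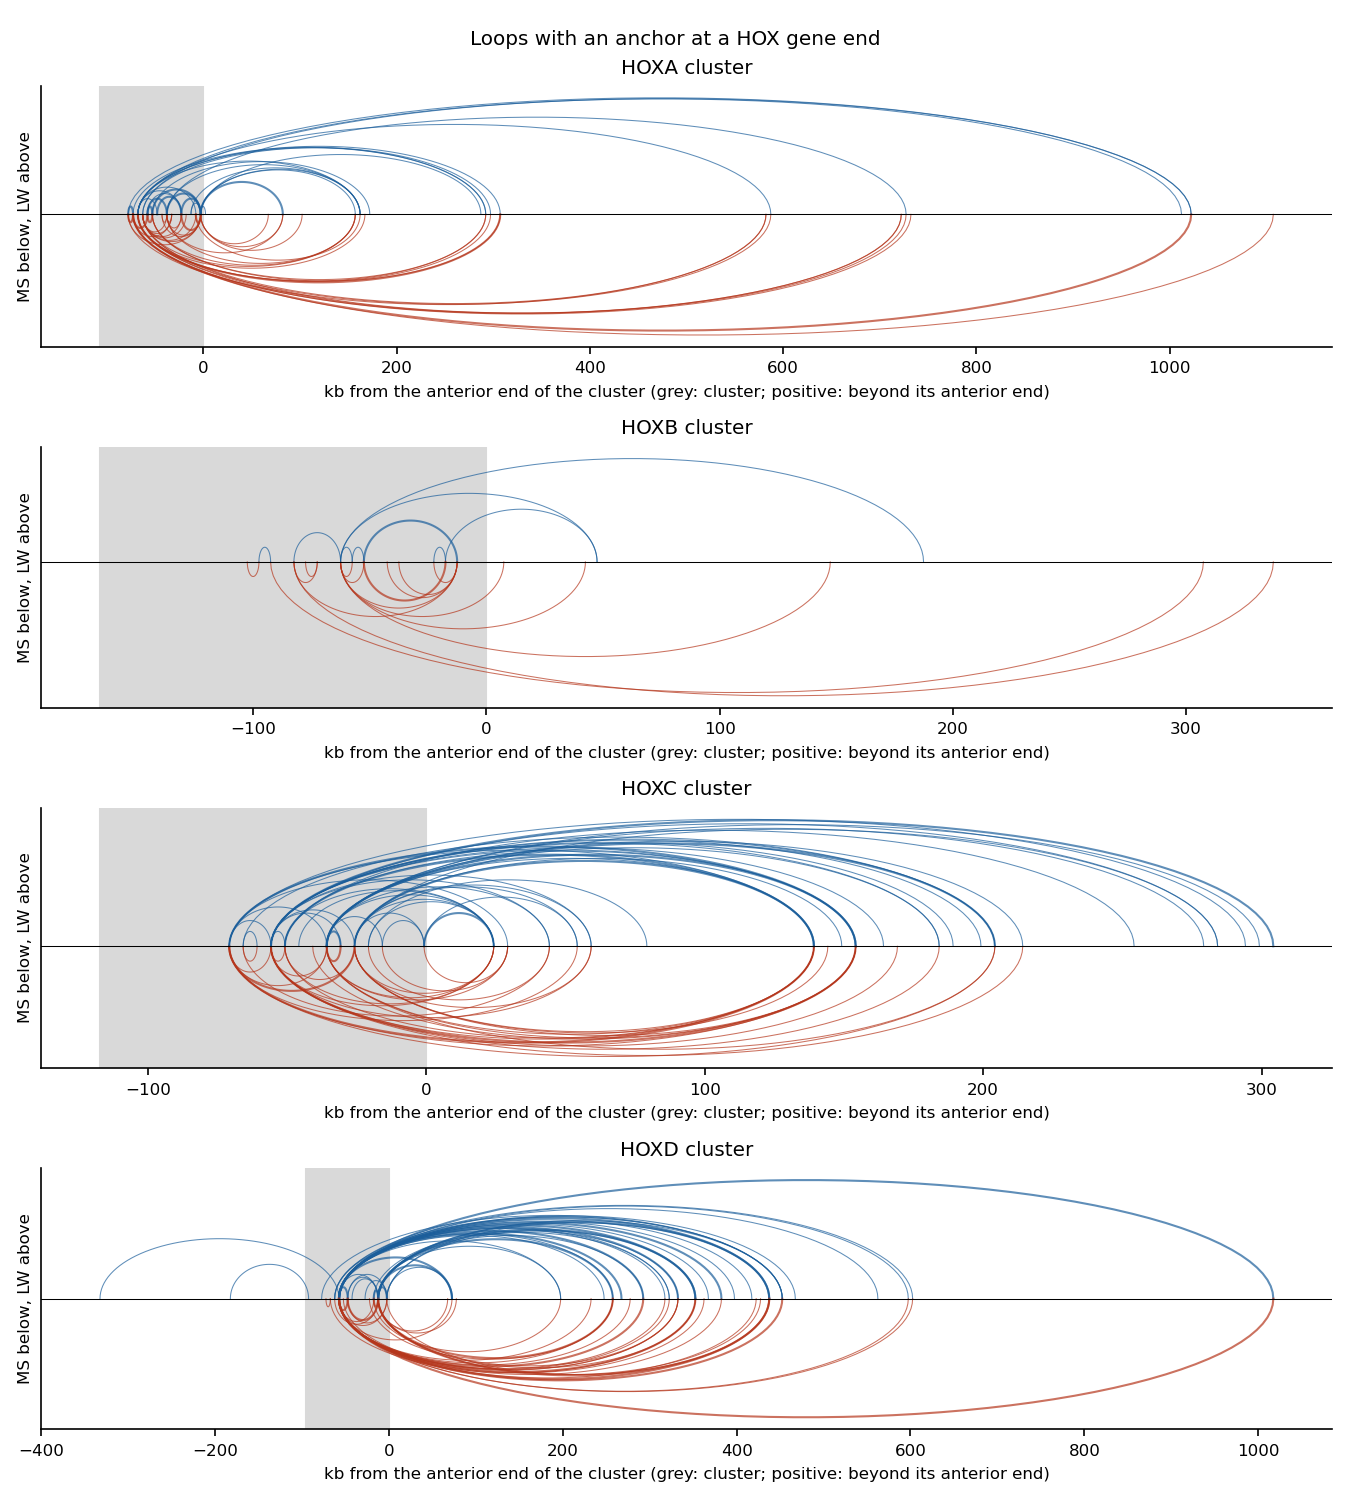
Loops with an anchor at a HOX gene end, drawn as arcs against the distance (kb) from the anterior end of each cluster, with LW above and MS below the line. Thicker arcs were called in both libraries of the breed, and the grey band is the cluster. Of 148 loops leaving a cluster, 146 end to the right of the band.

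The strongest HOX loop joined the anchor that covers most of HOXD8 (chr15:81930001-81935000) to chr15:82425001-82430000, a bin 495 kb away, beyond MTX2 (mitochondrial import), that overlaps no gene of the table. The nearest gene was the long non-coding RNA LOC102161209, 6.75 kb away. Its strength was 313 in LW1, 279 in LW2, 230 in MS1 and 205 in MS2, and LW lay above MS in all libraries. It ranked 1, 2, 1 and 12 among all loops of these libraries, while the median strength of loops of about the same span was 3.29 to 3.77. It gave 59.6% to 65.6% of the HOXD8 score. The HOXD8 anchor also lies less than 1 kb from an end of the protein-coding gene LOC110257186 (chr15:81935837-81941383). By the same rule the loops of this anchor are assigned to that gene too. The next strongest HOX loop reached 31.7, 31.3, 40.7 and 34.5.

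The outer bin had 14 to 15 loops in LW1, LW2 and MS1 and 10 in MS2, from HOXD1, HOXD3 and HOXD8 among others. HOXD3 reached it with strengths of 13.6, 8.40, 16.6 and 17.4. Further loops of HOXD8 in all 4 libraries ran to bins 350 kb (25.3, 16.5, 12.4 and 20.5) and 410 kb (27.7, 30.3, 40.7 and 33.6) away, and one ran 1075 kb into NFE2L2, the regulator of the antioxidant response (7.68, 8.62, 2.29 and 4.77). HOXD loops were long as a class. Of the HOXD loops 62.5%, 64.3%, 55.2% and 66.7% spanned 300 kb or more, against 7.18%, 7.28%, 7.61% and 6.77% of all loops.

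**Figure D3:**
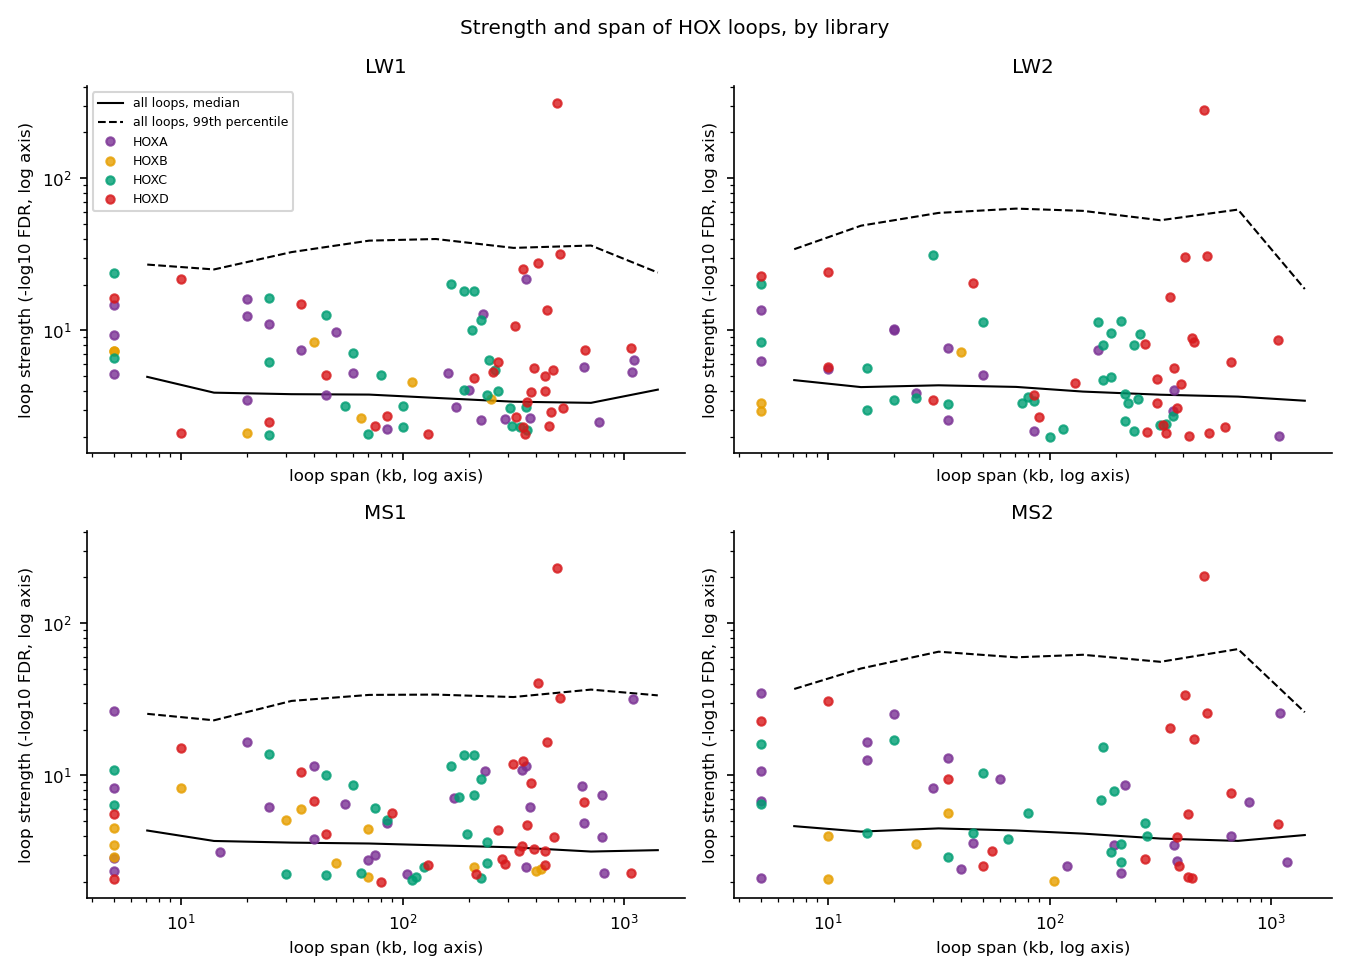
Strength (−log10 FDR) against span (kb) of each HOX loop, both on log axes, one panel per library, with the median and 99th percentile of all loops as lines. The HOXD8 loop of 495 kb stands far above the 99th percentile in each of the 4 libraries, at 205 to 313.

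HOXC, HOXA and HOXB reached other targets. From HOXC, 4 outer bins were reached in all 4 libraries: in the long non-coding RNA LOC102159203, in SMUG1 (base excision repair), in an intergenic bin and in CBX5, which encodes the heterochromatin protein HP1 alpha. The LOC102159203 bin was touched by 7 distinct loops from HOXC4, HOXC5, HOXC6, HOXC8 and HOXC9, 4, 3, 2 and 2 per library, and the SMUG1 bin by 3 in each library. One anchor of HOXA9 met a bin 1095 kb away in both MS libraries (32.0 and 25.6) and in neither LW library. The same bin was also reached in LW1, from the adjoining anchor shared by HOXA9 and HOXA10 (6.44) and from HOXA7 (5.36). From HOXB no outer bin was reached in all 4 libraries. Over all clusters, the leaving loops ended in 79 bins, of which 12 were reached in all 4 libraries and 43 in 1, and 32 of 148 leaving loops had a gene end at the outer anchor.

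HOX loops numbered 82.5 ± 10.6 in LW and 76.0 ± 19.8 in MS (mean ± SD, n = 2 libraries each), a difference inside the spread (exact permutation test, two-sided, p = 1). With 2 against 2 libraries this exact permutation test cannot go below p = 0.333. The share with both anchors in the cluster was 29.9% ± 2.99 in LW and 37.9% ± 8.01 in MS (exact permutation p = 0.333), and the ranges in the single libraries were 27.8% to 32.0% and 32.2% to 43.5%, which do not overlap. The MS2 library, with the fewest loops, held the highest share.

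Loop scores of single genes were compared with limma after quantile normalization, on the log2(score + 1) scale, over the 15431 genes with a loop. No HOX gene passed an adjusted p of 0.05 in limma, nor did any other gene. An unadjusted p under 0.05 was found for 1 HOX gene with limma, where 5.33% of all genes had one, and for 0 with DESeq2. At an unadjusted p of 0.05 and a log2 fold change beyond 1.5, 2.83% of all genes were higher in LW and 2.50% in MS. Of the 29 HOX genes tested 0 were higher in LW and 1, HOXB7, in MS. HOXB7, a central gene active in the thoracic trunk, had scores of 2.11, 0, 10.4 and 3.98 in LW1, LW2, MS1 and MS2, so both MS values lay above both LW values. Its log2 fold change, LW minus MS, was -2.87 ± 0.80 (SE), with an unadjusted p of 0.00933 and an adjusted p of 0.804 (limma). It rested on 3 loops or fewer a library, and the call was lost without normalization, with DESeq2 and without LW1 (-3.02), LW2 (-2.42) or MS1 (-2.42).

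HOXD8, with raw scores higher in both LW libraries, had a log2 fold change of 0.19 ± 0.83 after normalization (unadjusted p = 0.828, limma).

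The other genes with the smallest p in each direction did not reach the limit. HOXB8 had 2.11, 2.96, 15.6 and 3.98, without overlap between the breeds (log2 fold change -2.10 ± 0.93), and passed at an FDR of at most 0.001 (-2.98) and without LW2 (-2.71). It was -1.34 without MS1. HOXB3 had 9.96, 0, 11.2 and 5.64, with overlap (-1.87 ± 1.13), and ranged from -3.26 without LW1, where it passed, to -0.33 without LW2. In the other direction HOXC4 had 27.3, 10.1, 6.73 and 0, without overlap (2.27 ± 1.04). HOXC4 passed at an FDR of at most 0.001 (3.58), with an equal number of loops (3.82), with the replicate block (unadjusted p = 0.0185, limma) and without LW2 (2.70), and was 1.04 without MS2. HOXD9 had 53.0, 0, 0 and 2.55 (1.70 ± 1.85), which rested on LW1: it was -1.06 without LW1 and 4.48 without LW2. With 5-kb windows it was 0.16. The strongest LW1 loop of HOXD9 (31.7) ran to chr15:82440001-82445000. The adjoining anchor, at HOXD8, met the same bin in LW2, MS1 and MS2 (30.8, 32.4 and 25.7). HOXD1 had 19.1, 5.77, 6.75 and 3.20 (0.65 ± 0.83), and was 0.05 without LW1 and 1.23 without LW2. The scores did not overlap between the breeds for 6 HOX genes higher in LW and 6 higher in MS, where 21.1% and 7.02% of the genes tested did the same.

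On the RNA side, one RNA of a HOX gene was listed. The RNA named HOXA5 was listed in both LW libraries, with 1485 and 1633 reads, and in neither MS library. The smallest read counts listed were 432 (MS1) and 455 (MS2), so its absence there means that it was not listed and not that it was at 0. Of the 737 named RNAs 9.36% were listed in both LW libraries and no MS library. HOXA5, a central gene with roles in lung, diaphragm and axial skeleton, is the name in the list, but the outline of the RNA (chr18:45421663-45432885, plus strand) also overlaps HOXA6, HOXA3 and the long non-coding RNA LOC110257591. The files do not tell these sources apart.

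In LW1 the HOXA5 RNA lay on 37 adjoining bins and in LW2 on 57, with none on another chromosome and no gap. Its signal summed to 23819 in LW1 and 23573 in LW2, which ranked 483 of 571 and 587 of 681 listed RNAs. Its reads lay below the medians of the lists, 2824 in LW1 and 2951 in LW2. The highest bin lay inside the outline in both, at 1602 and 1103. In LW1 68.8% and in LW2 45.5% of the signal lay inside it. In LW2 a second, lower hump lay about 20 to 40 kb from the start of the RNA. These values are the background-corrected signal of the RNA relative to its own reads. At the edge of the run they rose in equal steps, in LW1 from 5.85 to 11.7, 17.6, 23.4 and 29.3. Neighbouring bins are therefore not independent values. The number of bins, the lack of gaps and the share inside the outline do not measure separate contacts.

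**Figure D4:**
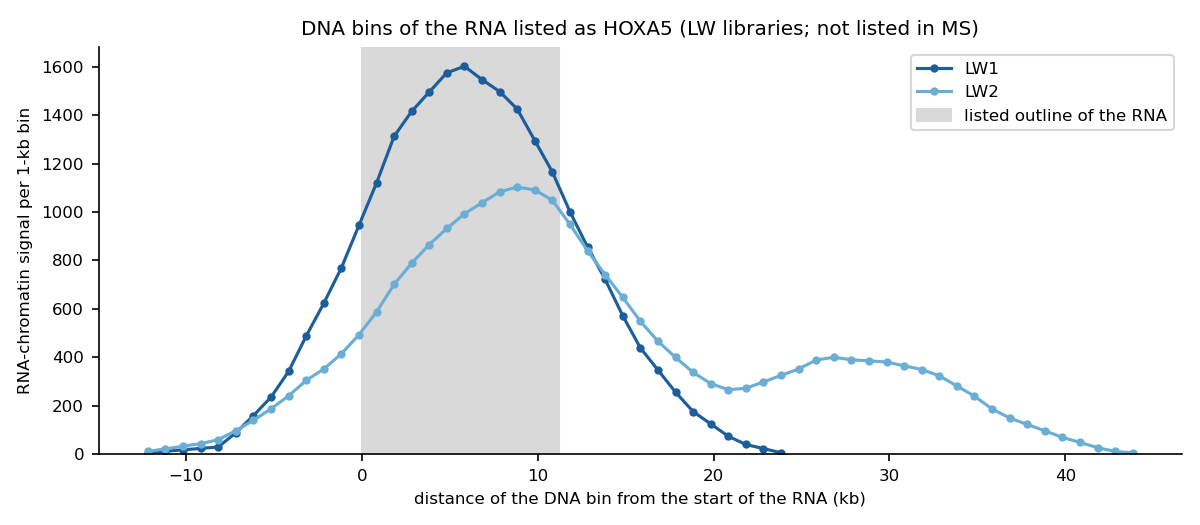
RNA-chromatin signal of the RNA listed as HOXA5 in each 1-kb DNA bin against the distance (kb) from its start, for LW1 and LW2, with the outline of the RNA in grey. The peaks, at 1602 and 1103, lie inside the outline, and LW2 has a second hump to the right.

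The RNA-chromatin signal of a gene is the summed signal of all listed RNAs in the bins within 5 kb of its ends. It was above 0 at 26, 29, 27 and 28 of the 36 HOX genes in LW1, LW2, MS1 and MS2 (72.2%, 80.6%, 75.0% and 77.8%). Among protein-coding genes the shares were 45.6%, 53.1%, 54.6% and 61.2%. Signal in all 4 libraries was found at 21 HOX genes and at 23.9% of protein-coding genes. Without the HOXA5 RNA the HOX counts per library were 22, 27, 27 and 28. HOXA3, HOXA6, HOXA7 and HOXA9, which are among the 21, then had 0 in LW1. HOXC13 had none in any library. With limma on 23302 genes no gene, and so 0 HOX genes, passed an adjusted p of 0.05. An unadjusted p under 0.05 was found for 11 HOX genes and for 15.8% of all genes. At an unadjusted p of 0.05 and a log2 fold change beyond 2, 7.49% of all genes were higher in LW and 8.28% in MS, against 9 and 2 of the 35 HOX genes tested.

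Of those 9 genes 6 lie around the HOXA5 RNA and take their LW signal from it. HOXA6 had 20130, 13596, 24.6 and 23.8 in LW1, LW2, MS1 and MS2, and HOXA5 had 16606, 12685, 22.4 and 17.6. HOXA3, HOXA7, HOXA4 and HOXA9 followed with LW values of 570 to 10320. Their log2 fold changes were 9.11 ± 0.96 (HOXA6), 9.28 ± 0.99 (HOXA5), 9.02 ± 1.11 (HOXA7), 7.60 ± 1.07 (HOXA4), 7.15 ± 1.53 (HOXA9) and 6.99 ± 1.03 (HOXA3), with adjusted p from 0.110 to 0.193 (limma). The 5-kb windows of these genes overlap, so they are not separate observations. Without the HOXA5 RNA none of the 6 passed as higher in LW, and HOXA3 passed as higher in MS (-4.96). HOXA4 then had a log2 fold change of 0.82 ± 1.81. The counts were then 3 HOX genes higher in LW and 3 in MS, where 7.47% and 8.26% of all genes passed. The HOXA9 call was also lost without LW1 (6.64) or LW2 (7.42).

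The other 3 genes higher in LW were HOXD13, a limb and genital gene (23.8, 41.1, 0.147 and 0.541, log2 fold change 4.50 ± 0.92), HOXD12 (18.3, 63.9, 1.34 and 5.07, 3.48 ± 0.87) and HOXC10 (8.01, 21.9, 0.0667 and 0, 3.59 ± 0.91). In each the LW values lay above the MS values. All 3 calls were lost when the RNA of TTN and 2 RNAs found on many chromosomes were left out (1.95, 1.82 and -0.015), and HOXC10 also without LW1 (3.82) or LW2 (3.24). HOXD12 was also lost with 10-kb windows (2.38), and HOXD12 and HOXC10 with the replicate block (unadjusted p = 0.0671 and 0.0650, limma). Among the genes higher in MS was HOXA2, an anterior gene of the hindbrain (0, 5.34, 45.8 and 37.9, log2 fold change -4.84 ± 1.40). Its MS values lay above its LW values, and the call was lost when any 1 of LW1, LW2, MS1 and MS2 was left out, with 10-kb windows (-1.76), with a pseudocount of 0.1 (-6.60) and with the replicate block (unadjusted p = 0.0577, limma). The HOXA2 call was kept with 1-kb windows (-5.08), without normalization (-4.08) and without the HOXA5 RNA (-6.07), which gave its only LW signal. HOXC6 came next, with 14.2, 113, 113 and 200 (-2.70 ± 1.05, unadjusted p = 0.0666, limma), without passing. Over the family the signal did not overlap between the breeds for 13 genes higher in LW and 8 higher in MS, beside 16.7% and 20.5% of all genes tested. Without the HOXA5 RNA these counts were 7 and 13, beside the same shares of all genes, since HOXA3, HOXA5, HOXA6, HOXA7 and HOXA9 then lay higher in MS.

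**Figure D5:**
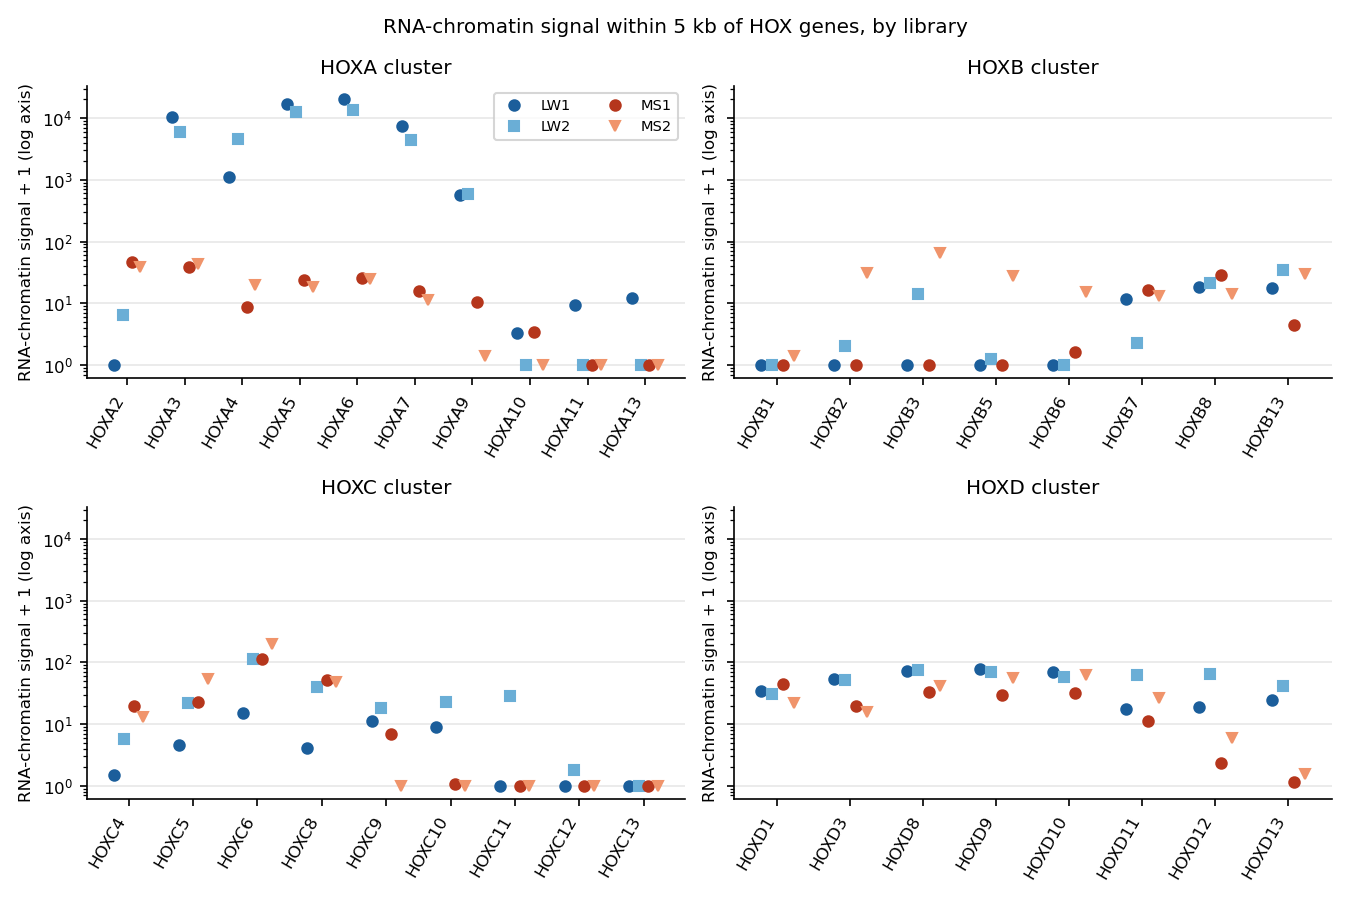
RNA-chromatin signal plus 1 within 5 kb of the HOX genes reported (log axis), one panel per cluster and one point per library. HOXA3 to HOXA9 stand at 570 to 20130 in LW1 and LW2 and below 50 in MS, while no gene of the other clusters exceeds 200.4.

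Apart from the HOXA5 RNA the signal came from 12 RNAs of other genes. On HOXD the RNA of titin (TTN), made on the same chromosome, lay on 83, 81, 62 and 40 bins, with a signal of 186, 138, 63.8 and 45.3, higher in both LW libraries. The TTN gene lies at chr15:84226953-84501320, beyond the anterior end of HOXD. Listed reads of the TTN RNA were 914086, 1016278, 697633 and 830738, also higher in both LW libraries. The part of its position and reads in this signal was not tested. The RNA of MYBPC1, a myosin-binding protein of slow fibres made on the chromosome of HOXC, lay on HOXC in MS only, on 21 and 28 bins with 88.3 and 167. ENSSSCG00000038561 lay on HOXD in LW only (47.1 and 66.2). Bins touched within 5 kb of HOX genes numbered 230 and 260 in LW and 238 and 242 in MS.

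Genes that act with or upon the HOX genes were examined as lists of known members. The list of cofactors holds the PBX and MEIS proteins, which bind DNA with HOX proteins, and the related PKNOX and TGIF proteins, all of the TALE class. Of these 11 genes 7 had a loop in some library and 5 in all 4, and 0 passed the loop test in either direction. MEIS1 had scores of 38.3, 86.6, 36.5 and 37.5. In the RNA test, where 8.28% of all genes were higher in MS and 7.49% in LW, 2 of 11, MEIS1 (-4.21 ± 1.10) and MEIS2 (-3.47 ± 0.94), were higher in MS. Of 9 upstream regulators 6 had a loop and 0 passed the loop test, and 1 of 8 tested, RARB, a retinoic acid receptor, was higher in MS in the RNA test (-4.38 ± 0.95). Of 22 chromatin regulators, among them Polycomb and Trithorax proteins, DOT1L and CTCF, 20 had a loop, 1 of these 20 (RING1, -2.29 ± 0.84, higher in MS, as were 2.50% of all genes) passed the loop test, and in the RNA test 1 of 21, PCGF2 (8.04 ± 1.13), was higher in LW. In that test 4 were higher in MS: BMI1 (-5.52 ± 1.06), DOT1L (-3.98 ± 1.14), EED (-5.78 ± 1.11) and JARID2 (-2.62 ± 0.91). None of these genes passed an adjusted p of 0.05. The RNA test takes the signal of any listed RNA on DNA within 5 kb of a gene, not the gene's own RNA. No RNA of the 22 chromatin regulators or the 9 upstream regulators was listed in any library. The same held for MEIS1, MEIS2 and, among the neighbours below, HIBADH. The gene table held 15 neighbours of the clusters. A loop was found at 12 of them, 0 passed the loop test and 1 of 15 tested, HIBADH (-2.85 ± 0.85), was higher in MS in the RNA test, and EVX1 and EVX2, the homeobox genes beside the posterior ends of HOXA and HOXD, had none.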

How the data were processed

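Loops of H3K27ac BL-HiChIP and RNA-chromatin signal of GRID-seq were used, 4 libraries each, and the samples without a file here were not analysed. The authors aligned to Sscrofa11.1, called loops per library with FitHiChIP at 5 kb, and deposited each loop with its FDR (q-value), at most 0.01. The GRID-seq lists deposited by the authors give the read count of each RNA and its background-corrected signal per 1-kb bin, listed from 0.02. An FDR of 0 (2 loops, not at HOX genes) took the lowest value above 0 of its library. The gene table has no strand, so both gene ends were used. Scores and signals were quantile normalized and tested with limma 3.58.1 in R 4.3.3 with a pseudocount of 1, without a filter beyond a value above 0 in 1 library. The script was tested on simulated data. The study named DESeq2 for loops, and DESeq2 1.42.0 was run as an alternative. Named genes were the members past a threshold and the 3 of smallest p in each direction. The members and lists were chosen with earlier results of these data known. Depth is given as loops and reads, and its number limits the precision. Values of some single genes and RNAs are not reported here, although counts over the family include them.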

Additional observations from a re-analysis of the deposited data

How the results depend on the processing

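No HOX gene passed an adjusted p of 0.05 under any alternative for loop score or RNA-chromatin signal. HOX genes past the fold and p limits in the loop test, 0 in LW and 1 in MS, became 1 in LW at an FDR of at most 0.001, with an equal number of loops per library and with the replicate block. In MS they became 2 with 5-kb windows and at that FDR, and 0 without normalization and with DESeq2. Leaving out each library in turn gave 0 to 2 in LW and 0 to 2 in MS. Of the named genes, HOXD9 reversed without LW1 (-1.06 to 4.48 over the libraries left out). Without normalization the median log2 fold change of all genes moved to 0.38.

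In the RNA test the count in LW fell from 9 to 3 without the HOXA5 RNA, an alternative added after the data were seen, and HOXA6 (-3.07), HOXA5 (-1.41), HOXA7 (-2.71), HOXA3 (-4.96) and HOXA9 (-1.80) reversed, since that RNA gives their LW signal. The MS count, 2, was 1 with 10-kb windows, 4 without TTN and 2 trans RNAs, 1 with the replicate block and 0 to 2 when a library was left out. The difference at HOXC10 disappeared without TTN and the trans RNAs (-0.015). The difference in bins, 5.00, became -27.5 without those RNAs and -16.5 without the HOXA5 RNA. The LW share inside clusters was 35.3% at an FDR of at most 0.001 and 37.0% with equal numbers, where the MS share was 42.8% and 41.6%, and 27.8% to 32.0% without 1 library (MS 32.2% to 43.5%). The anterior share was 100% under both. The cause was not tested where none is named.

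With the replicate block the loop test gave 1 HOX gene in each direction, and the RNA test 7 in LW and 1 in MS. Deviations of same-numbered libraries correlated at r = 0.35 in loop score and -0.01 in RNA signal, across genes, which are not replicates. With 2 pairs the numbers are not known to pair the samples. The alternative with the 5′ end alone was not run, as the gene table has no strand. Only 2 libraries per breed limit every comparison.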
